A study of Mus musculus with 6 samples.

Results

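The genes described here are 9 mouse genes linked to the IL-4 type of alternative macrophage activation: the receptor chains Il4ra and Il13ra1, the secreted products Retnla, Chil3 and Ear2, the surface receptors Mgl2, Clec10a and Folr2, and the enzyme gene Tgm2. They were taken by gene symbol from a table of 56691 genes, in which each symbol had a row, and 8 of the 9 had enough reads to be tested. Bone marrow cells had been grown into macrophages with M-CSF, a macrophage growth factor, and were sorted once they had shared a culture with the cancer cell line mEC25. The cells touched in 3 cultures (contact) and were kept apart in the other 3 (transwell), so M-CSF and mEC25 cells are common to both groups and macrophages without cancer cells are not among the samples. The sources used here do not give strain, age, genotype, culture time or whether the replicates came from separate mice, and the p-values therefore cover the spread among these libraries, possibly only technical spread.

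IL-4 and IL-13 are cytokines that switch macrophages to a state known from parasite infection, allergy and tissue repair. IL-4 binds the chain encoded by Il4ra, which pairs with the common gamma chain (Il2rg) in the type I receptor or with the chain encoded by Il13ra1 in the type II receptor, and the type II receptor also binds IL-13. Receptor-bound JAK kinases then activate the transcription factor STAT6, which drives genes such as Retnla, Chil3 and Mgl2 in mouse macrophages.

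The promoter windows of Retnla, Chil3 and Mgl2 are shown because these 3 classical IL-4 response genes stood at very different levels in the libraries. Each window runs 5′ to 3′ on the strand of the gene, from 250 bases before to 50 bases after the RefSeq start on GRCm38.p6, and capitals mark matches to the motifs named after the sequences, of which the Chil3 window holds none.
Retnla, chr16:48842359-48842658, plus strand: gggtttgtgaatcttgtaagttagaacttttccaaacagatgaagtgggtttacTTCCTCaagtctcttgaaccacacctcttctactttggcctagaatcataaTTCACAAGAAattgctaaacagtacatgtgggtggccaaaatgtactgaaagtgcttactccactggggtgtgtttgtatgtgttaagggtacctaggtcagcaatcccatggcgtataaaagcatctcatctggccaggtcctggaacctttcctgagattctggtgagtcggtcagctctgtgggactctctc
Chil3, chr3:106167515-106167814, minus strand: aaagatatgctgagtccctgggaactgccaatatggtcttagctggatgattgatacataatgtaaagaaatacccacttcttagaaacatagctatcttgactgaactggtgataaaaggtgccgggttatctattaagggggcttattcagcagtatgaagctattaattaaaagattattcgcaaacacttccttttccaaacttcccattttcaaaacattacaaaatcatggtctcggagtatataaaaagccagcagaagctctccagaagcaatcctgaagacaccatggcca
Mgl2, chr11:70130107-70130406, plus strand: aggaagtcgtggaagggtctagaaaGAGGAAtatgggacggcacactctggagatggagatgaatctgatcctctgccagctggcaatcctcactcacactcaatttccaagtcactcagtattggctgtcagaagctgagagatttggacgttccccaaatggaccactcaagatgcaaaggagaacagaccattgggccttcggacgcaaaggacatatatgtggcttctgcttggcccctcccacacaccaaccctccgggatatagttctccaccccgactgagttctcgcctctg

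Promoter sequences came from a RefSeq table that held 8 windows for 7 of the 9 genes, namely Il4ra, Il13ra1, Retnla, Chil3, Mgl2, Ear2 and, with 2 starts, Folr2. The STAT6-type motif, TTC and GAA with 4 bases of any kind between them, was searched on both strands. It was found in the Retnla window, 145 bases before the start, and in no other of the 8, against 6.95% of 32851 promoter windows of the same length. The core of the PU.1 motif, GAGGAA on either strand, matched in Retnla and in Mgl2 and in 28.3% of all windows. The pattern TTGCNNNAA, searched as a motif for C/EBP factors, matched in none of the 8 and in 9.56% of all. Its 2 ends stand farther apart than in the usual C/EBP site, so these counts concern another spacing. Whether the windows hold a usual C/EBP site was not tested. The matches of different motifs did not overlap in the windows shown, and a match describes letters and shows no binding.

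Library totals ran from 20911880 to 22563835 counts for contact and from 18173192 to 18895818 for transwell, of which mitochondrial genes took 1.74% to 1.82% and 0.923% to 1.25%. All 12 macrophage markers were found in all 6 libraries, with summed levels of 16371 to 18191 FPKM (fragments per kilobase of exon, scaled to the library total) in contact and 17523 to 18670 FPKM in transwell. Most of that sum was Lyz2, and the list was not level: of the 12, 4 were called higher and 5 lower in contact, among them Cd14 (2.81-fold higher), Fcgr1 (3.75-fold lower) and Adgre1 (2.3-fold lower). Contact libraries also held epithelial transcripts: of 18 markers 14 could be tested and all 14 were higher, and the summed level was 1103, 1667 and 944 FPKM in contact replicates 1, 2 and 3 and 4.43 to 5.03 FPKM in transwell, where Dsg3 and Cldn4 had no count. Transwell replicate 1 stood apart from replicates 2 and 3 in its neutrophil markers, whose summed level was 1142 FPKM against 509 and 485 FPKM. Values that bear on either are given beside the results they move with.

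In edgeR's quasi-likelihood test over 14113 genes, with a Benjamini-Hochberg adjusted p under 0.05 as the threshold, the listed genes split evenly. Il13ra1, Mgl2 and Tgm2 rose in contact and Il4ra, Clec10a and Folr2 fell, while Chil3 and Ear2 did not pass and Retnla was too low to be tested. That makes 6 of 8 tested genes called, where 37.5% of all tested genes were called, 21.4% higher and 16.1% lower. The FPKM of the groups did not overlap for 7 of the 8, 4 higher and 3 lower in contact, where the shares over all tested genes were 51.2%, 35.8% and 15.3%. Of all called genes 57.1% were higher in contact, and 73.1% were with library totals in place of TMM scaling, 72.8% in limma on log2(FPKM + 1) and 73% on log2(FPKM + 0.1). The median log2 change, contact minus transwell, was 0.48 over the 8 genes and 0.03 over all tested genes. In bulk RNA, a smaller number of cells of a type and less RNA per cell cannot be told apart.

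**Figure D1:**
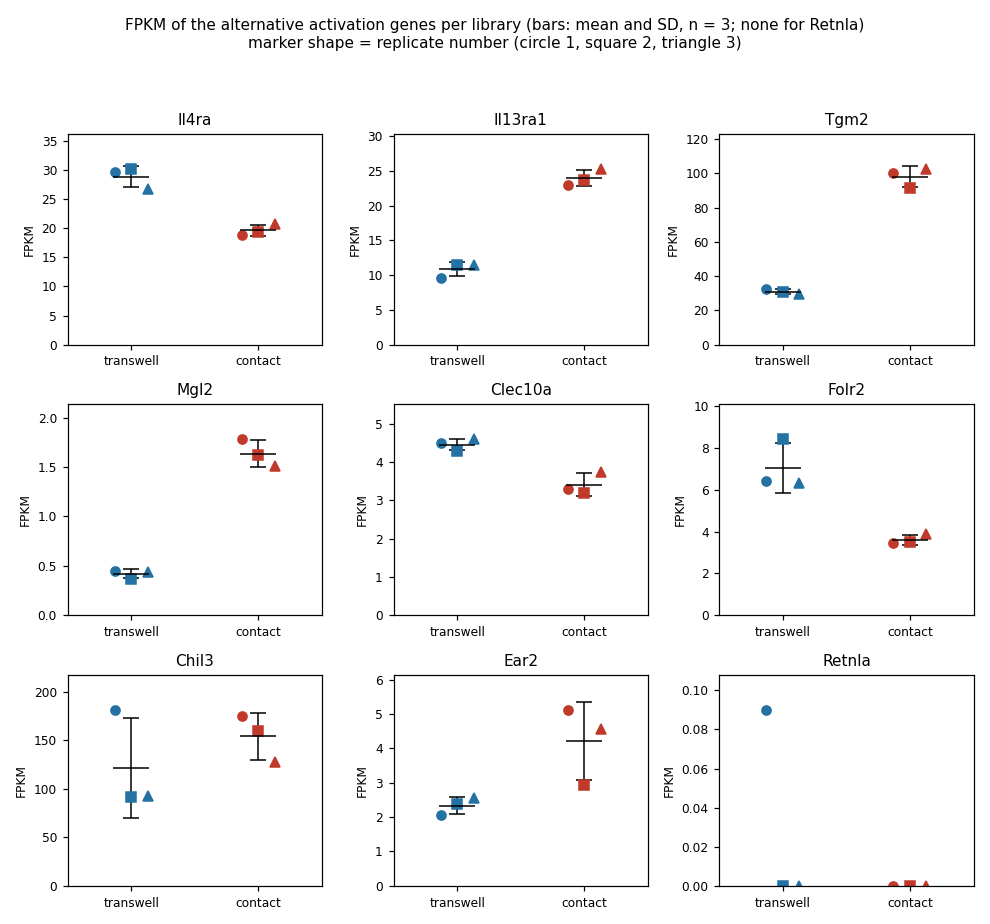
FPKM of each of the 9 genes (vertical axis, from 0) in the 3 transwell (blue) and 3 contact (red) libraries, with the mean and SD as bars (none for Retnla). Il13ra1, Tgm2 and Mgl2 sit higher in every contact library, Il4ra, Clec10a and Folr2 lower, the Chil3 groups overlap, and Retnla is at 0 in all libraries but transwell replicate 1.

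The receptor chains moved in opposite directions. Il4ra, which encodes the chain that binds IL-4 (ENSMUSG00000030748, protein-coding, chromosome 7, 125552120 to 125579474 on GRCm38, plus strand), stood at 18.8, 19.4 and 20.6 FPKM in contact replicates 1, 2 and 3 and at 29.5, 30.1 and 26.7 FPKM in transwell replicates 1, 2 and 3. All contact values lay below all transwell values. The means were 19.6 ± 0.941 and 28.8 ± 1.83 FPKM (SD, n = 3), and contact was 1.59-fold lower, with a log2 change and SE of -0.67 ± 0.08 (edgeR adjusted p = 0.0001023). The antisense gene Gm44876 overlaps 571 of its exonic bases and had 2 counts over all libraries.

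Il13ra1, the partner chain of the type II receptor (ENSMUSG00000017057, protein-coding, chromosome X, 36112110 to 36171259 on GRCm38, plus strand), stood at 22.9, 23.8 and 25.3 FPKM in contact and at 9.67, 11.4 and 11.5 FPKM in transwell replicates 1, 2 and 3. The groups did not overlap, and the contact libraries lay close together. Contact was 2.04-fold higher, and the log2 change was 1.03 ± 0.09 (edgeR adjusted p = 2.302e-05), and the means were 24 ± 1.2 and 10.9 ± 1.05 FPKM. Contact replicate 2, which had the highest epithelial marker level, had neither the highest nor the lowest Il13ra1 level of the 3 contact libraries, and the part of the cancer cell transcripts was not tested.

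Within each library the ratio of Il13ra1 to Il4ra, both as FPKM, does not depend on how libraries are scaled. It was 1.22, 1.23 and 1.23 in contact and 0.328, 0.38 and 0.431 in transwell replicates 1, 2 and 3. Il4ra was thus the more abundant chain per length in every transwell library and Il13ra1 in every contact library. The mean log2 ratio was 1.70 higher in contact, or 3.25-fold, with an exact two-sided permutation p of 0.1 (adjusted p = 0.1 over the 3 ratios compared), the smallest value that 3 against 3 libraries allow.

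Il2rg encodes the common gamma chain, the other partner of the IL-4 receptor alpha chain. Its level was 59.3, 54.1 and 61.5 FPKM in contact and 86.1, 78.9 and 77.1 FPKM in transwell replicates 1, 2 and 3, and it fell (log2 change -0.58 ± 0.08, edgeR adjusted p = 0.000402). The ratio of Il2rg to Il13ra1 was 2.59, 2.27 and 2.43 in contact and 8.91, 6.9 and 6.69 in transwell. Its mean log2 value differed by -1.62 (exact permutation p = 0.1, adjusted p = 0.1), and it was lower in each contact library than in any transwell library. Il2rg remained above Il13ra1 per length in all 6 libraries. Transcripts of the decoy chain Il13ra2 numbered 0 to 2 counts per library.

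**Figure D2:**
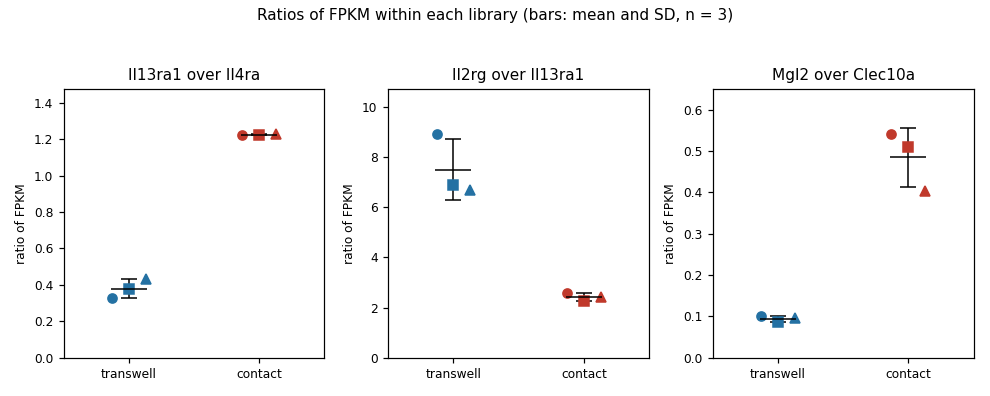
Ratios of FPKM within each library (vertical axes, from 0) for Il13ra1 over Il4ra, Il2rg over Il13ra1 and Mgl2 over Clec10a, in transwell (blue) and contact (red), with the mean and SD of 3 libraries. The groups do not overlap in any of the 3 ratios, and Il13ra1 over Il4ra is below 1 in transwell and above 1 in contact.

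Tgm2, which encodes a transglutaminase that crosslinks proteins and marks alternatively activated macrophages of mouse and human (ENSMUSG00000037820, protein-coding, chromosome 2, 158116402 to 158146436 on GRCm38, minus strand), stood at 100.4, 91.4 and 102.6 FPKM in contact and 32.4, 31 and 29.7 FPKM in transwell replicates 1, 2 and 3. Each contact library was far above each transwell library, and the means were 98.2 ± 5.93 and 31.1 ± 1.36 FPKM. The fitted difference was 2.92-fold, and the log2 change was 1.55 ± 0.08 (edgeR adjusted p = 1.033e-06). Contact replicate 2, with the highest epithelial marker level, had the lowest Tgm2 level of the contact libraries, and the part of cancer cell transcripts in the Tgm2 result was not tested. The opposite-strand genes Gm20412 and Rprd1b share 633 and 370 exonic bases with Tgm2. Gm20412 had no count, and Rprd1b stood at 3.5 to 4.9 FPKM over the 6 libraries. Of the stretches of 50 bases in Tgm2 transcripts 18.7% also occur in transcripts of other genes. Some Tgm2 reads may therefore have been dropped in the authors' counting.

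The surface lectins Mgl2 and Clec10a, which bind galactose-type sugars and are known as CD301b and CD301a, lie 18646 bases apart on chromosome 11 and moved in opposite directions. Mgl2 (ENSMUSG00000040950, protein-coding, 70130329 to 70137550 on GRCm38, plus strand) stood at 1.78, 1.62 and 1.51 FPKM in contact and 0.45, 0.37 and 0.44 FPKM in transwell replicates 1, 2 and 3. The counts behind these levels were 84, 71 and 70 for contact against 18, 14 and 17 for transwell, and the groups did not overlap. The log2 change was 1.84 ± 0.25 (edgeR adjusted p = 0.0003176), or 3.57-fold, and it was 0.89 in limma on log2(FPKM + 1), a scale that compresses low values. Mgl2 also marks dendritic cells. Of 8 dendritic markers 6 were too low to be tested and the others were not called, and the summed level of the list was 2.19 to 3.47 FPKM in contact and 2.35 to 4.5 FPKM in transwell. The part of dendritic cell RNA in the Mgl2 result was not tested.

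Clec10a (ENSMUSG00000000318, protein-coding, 70156197 to 70170834 on GRCm38, plus strand) stood at 3.29, 3.18 and 3.74 FPKM in contact and 4.49, 4.29 and 4.59 FPKM in transwell replicates 1, 2 and 3. Contact values were lower throughout, and the log2 change was -0.50 ± 0.12 (edgeR adjusted p = 0.007321). The ratio of Mgl2 to Clec10a was 0.541, 0.509 and 0.404 in contact and 0.1, 0.0863 and 0.0959 in transwell. It was 5.12-fold higher in contact (exact permutation p = 0.1, adjusted p = 0.1), and Clec10a remained the more abundant of the pair per length in all libraries. Of the stretches of 50 bases in Mgl2 transcripts 12.2% also occur in Clec10a transcripts, so some reads of the pair may have been split or dropped in the authors' counting.

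Folr2 encodes folate receptor beta, a surface marker of tissue-resident macrophages (ENSMUSG00000032725, protein-coding, chromosome 7, 101839988 to 101857194 on GRCm38, minus strand). It stood at 3.44, 3.5 and 3.88 FPKM in contact and 6.4, 8.4 and 6.3 FPKM in transwell replicates 1, 2 and 3, and no contact library reached a transwell library. Il4ra, Clec10a and Folr2 thus fell where, of the 12 macrophage markers, 5 fell and 4 rose, with a median log2 change of 0.02. What part the amount of macrophage RNA has in these falls was not tested. The Folr2 means were 3.61 ± 0.239 and 7.03 ± 1.18 FPKM, 2.11-fold lower in contact (log2 change -1.08 ± 0.15, edgeR adjusted p = 0.0004424). The antisense gene Gm10602 overlaps 975 exonic bases of Folr2. It had 14 to 25 counts per library where Folr2 had 113 to 236. Of the stretches of 50 bases in Folr2 transcripts 52.6% also occur in Gm10602 transcripts, on the opposite strand. The strand setting is not known, so reads of these stretches may have gone to either gene or been dropped in the authors' counting. The Folr2 level is therefore uncertain.

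Chil3 encodes Ym1, a secreted chitinase-like lectin that forms crystals in inflamed mouse airways (ENSMUSG00000040809, protein-coding, chromosome 3, 106147554 to 106167564 on GRCm38, minus strand). It had the highest level per length of the listed genes in every library, at 175.4, 159.6 and 127.5 FPKM in contact and 181.4, 91.5 and 92.6 FPKM in transwell replicates 1, 2 and 3. The groups overlapped because transwell replicate 1 was the highest of all 6 libraries. The log2 change was 0.22 ± 0.25 (edgeR adjusted p = 0.5243). Without transwell replicate 1 it was 0.63 and passed (adjusted p = 0.002942), and over the 15 alternatives the adjusted p ranged from 0.002942 to 0.9805. Of the stretches of 50 bases in Chil3 transcripts 26.9% also occur in transcripts of other genes, chiefly Chil4 (16.9%) and Gm6522 (13.3%). Some Chil3 reads may therefore have been dropped in the authors' counting. Chil4 had no count and Gm6522 had 2 over all libraries.

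Chil3 is also expressed by immature neutrophils in mouse bone marrow. Its level moved with the summed level of the neutrophil marker list, which holds S100a8, S100a9, Elane, Mpo and Ly6g among its 8 genes. The summed FPKM of these 8 markers was 1123, 863 and 757 in contact and 1142, 509 and 485 in transwell replicates 1, 2 and 3. Most of that sum was S100a8 (mean 262 FPKM in contact and 281 FPKM in transwell) and S100a9 (526 and 381 FPKM). Elane stood at 31.2, 35.5 and 21.2 FPKM in contact and 6.08, 2.68 and 3.01 FPKM in transwell replicates 1, 2 and 3. It and Mpo were higher in every contact library than in transwell replicate 1, where Chil3 was highest. Transwell replicate 1 exceeded the mean of the other transwell libraries 1.97-fold in Chil3 and 2.3-fold in the marker sum. Chil3 amounted to 0.156, 0.185 and 0.168 of the marker sum in contact and 0.159, 0.18 and 0.191 in transwell, so the groups overlapped in this ratio as well. Of 7 markers that could be tested Elane and Mpo were higher in contact and none lower, and Ly6g had 0 to 4 counts per library. The ratio was chosen after the values were seen, and what part neutrophil RNA has in the Chil3 level was not tested.

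**Figure D3:**
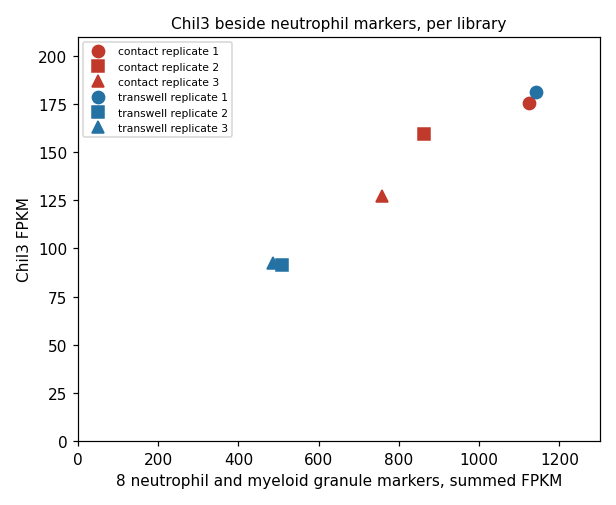
Chil3 FPKM (vertical axis) against the summed FPKM of 8 neutrophil and myeloid granule markers (horizontal axis), 1 point per library, both axes from 0. Most of the sum is S100a8 and S100a9. The libraries rank alike on both axes except that transwell replicates 2 and 3, which lie close together, change places, and transwell replicate 1 lies beside contact replicate 1.

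Ear2 encodes a secreted ribonuclease named for eosinophils and also made by macrophages (ENSMUSG00000072596, protein-coding, chromosome 14, 44102654 to 44103534 on GRCm38, plus strand). It stood at 5.12, 2.93 and 4.57 FPKM in contact and 2.06, 2.37 and 2.55 FPKM in transwell replicates 1, 2 and 3. Contact values were higher throughout, though contact replicate 2 lay close to the transwell libraries. The log2 change of 0.74 ± 0.28 missed the threshold (edgeR adjusted p = 0.06326). It passed in 5 of 15 alternatives, with adjusted p-values from 0.01571 to 0.2208, among them without contact replicate 2 (0.95) and with library totals in place of TMM scaling (0.85).

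Of 6 eosinophil markers, Il5ra had no count in any library and Epx at most 8, and none of the 3 that could be tested was called. Their summed level was 5.84 to 14.9 FPKM in contact and 2.98 to 9.72 FPKM in transwell. Prg2, a granule protein gene, stood at 11.9, 12.3 and 3.92 FPKM in contact and 7.83, 0.72 and 1.8 FPKM in transwell replicates 1, 2 and 3 (edgeR adjusted p = 0.1685), above Ear2 in 3 of the 6 libraries. The part of eosinophil RNA in the Ear2 level was not tested. Of the stretches of 50 bases in Ear2 transcripts 41.5% also occur in transcripts of other genes, chiefly Ear10 (26%) and Ear1 (23.6%), so its level is uncertain. Ear10 had no count and Ear1 had 0 to 5 counts per library.

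Retnla encodes RELM alpha, also called FIZZ1, a secreted protein that IL-4 induces strongly in mouse macrophages (ENSMUSG00000061100, protein-coding, chromosome 16, 48842551 to 48844461 on GRCm38, plus strand). It had 0 counts in the 3 contact libraries and 1, 0 and 0 counts in transwell replicates 1, 2 and 3. A count of 0 allows up to 3 counts per library, or 0.222 to 0.24 FPKM in the contact libraries, for counting error only. None of its stretches of 50 bases occurs in another gene's transcripts. In the transwell libraries 3 counts stand for 0.265 to 0.276 FPKM, and the single count of transwell replicate 1 lay below that floor. Retnla thus did not reach the floor in either group at this depth, and no fold is given.

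Ordered by level per length in contact, Chil3 came first, then Tgm2, Il13ra1 and Il4ra, each with a range apart from the next. Ear2, Folr2 and Clec10a followed with ranges that overlapped between neighbours, and Mgl2 and Retnla came last. In transwell the order was Chil3, Tgm2, Il4ra, Il13ra1, Folr2, Clec10a, Ear2, Mgl2 and Retnla, and the ranges overlapped only between Tgm2 (29.7 to 32.4 FPKM) and Il4ra (26.7 to 30.1 FPKM). Il4ra and Il13ra1 changed places between the groups, as did Ear2 with Folr2 and Clec10a, though in contact the ranges of those 3 were not apart.

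The other genes of the IL-4 pathway were read from 3 lists with 38 genes in all, of which 31 could be tested. In contact 9 rose (29%) and 10 fell (32.3%), where the shares over all tested genes were 21.4% and 16.1%. The median log2 change of the 31 was -0.10, and 0.01 with library totals or in limma on either FPKM scale. In the receptor signalling list 2 of 11 rose and 5 fell. STAT6, the factor that IL-4 signals through, was expressed at 43.9, 42.7 and 45.3 FPKM in contact and 48.7, 47.8 and 49.3 FPKM in transwell replicates 1, 2 and 3 (gene Stat6). It fell a little (log2 change -0.26 ± 0.07, edgeR adjusted p = 0.01165), and that call ended with library totals (-0.14), in limma on log2(FPKM + 1) (-0.14) and log2(FPKM + 0.1) (-0.15), and without transwell replicate 3 (-0.26).

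Jak3, the kinase of the common gamma chain, fell as well (-0.63 ± 0.11), as did Ptpn6, the gene of the phosphatase SHP-1 that dampens cytokine signals (-0.47 ± 0.08). Tyk2, a kinase of the type II receptor, was also called lower (-0.26 ± 0.08), and 7 of 15 alternatives ended that call. Irs2, an adaptor that IL-4 receptors recruit, rose from 1.92 ± 0.0929 to 4.56 ± 0.321 FPKM (1.13 ± 0.10, edgeR adjusted p = 1.653e-05), and so did Cish, a feedback inhibitor of cytokine signalling (1.39 ± 0.20). The Irs2 levels of contact replicates 1, 2 and 3, at 4.44, 4.92 and 4.31 FPKM, ranked as the epithelial marker levels did, and the part of cancer cell transcripts was not tested. The ligand gene Il4 stood at 0.7 to 0.99 FPKM in contact and 0.6 to 1.45 FPKM in transwell (edgeR adjusted p = 0.2674), and Il13 had 0 to 3 counts per library. Of 6 markers of mast cells, basophils and T cells, which make IL-4, 3 could be tested and Kit alone was called, higher in contact (1.03).

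In the list of transcription factors and co-regulators 4 of 8 rose and none passed in the other direction. Klf4, a factor that acts with STAT6 in mouse macrophages, stood at 12.5, 18.5 and 11.3 FPKM in contact and 2.38, 1.75 and 1.91 FPKM in transwell replicates 1, 2 and 3, 6.46-fold higher in contact (log2 change 2.69 ± 0.20, edgeR adjusted p = 7.944e-06). Klf4 is also an epithelial gene, and its contact values ranked as the epithelial marker levels did, with replicate 2 highest and replicate 3 lowest. Their part in the result was not tested. Kdm6b, a histone demethylase gene (0.71 ± 0.08), and Cebpb (0.55 ± 0.10), a factor that drives Arg1, rose too. Myc was called higher (0.40 ± 0.13), a call that ended without contact replicate 2 (0.32) or 3 (0.37) or transwell replicate 1 (0.35) or 2 (0.35). Pparg stood at 1.1, 1.38 and 2.38 FPKM in contact against 2.06 to 2.24 FPKM in transwell (edgeR adjusted p = 0.1516). It was called lower in 2 of 15 alternatives, without contact replicate 3 (-0.92) and with no filter on low counts (-0.56).

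Of the other target genes 3 of 12 rose and 5 fell. The 4 that were not called were Mrc1, Ccl22, Pdcd1lg2 and Atp6v0d2. Mrc1 stood at 21.3 ± 4.01 FPKM in contact and 19.1 ± 4.49 FPKM in transwell (log2 change 0.05 ± 0.17, edgeR adjusted p = 0.8656). Mmp12, the macrophage elastase gene, fell most, from 62.4 ± 4.35 to 27.9 ± 4.14 FPKM (log2 change -1.27 ± 0.11, edgeR adjusted p = 1.728e-05). Slc7a2, which brings arginine into the cell (-1.02 ± 0.17), Cd200r1, an inhibitory receptor gene (-0.97 ± 0.13), Arg1, the arginase gene (-0.91 ± 0.07), and Cd163, a haemoglobin scavenger receptor gene (-0.68 ± 0.19), fell with it, though 5 alternatives ended the Cd163 call. Fn1, the fibronectin gene (1.51 ± 0.12), and Il1rn, the gene of the IL-1 receptor antagonist (0.56 ± 0.13), rose. Fibroblasts also express Fn1, and 4 of 5 tested fibroblast markers were higher in contact, with summed levels of 10.1 to 24.2 FPKM against 3.31 to 7.84 FPKM. Cdh1, the E-cadherin gene that IL-4 induces in macrophages and that epithelia express, rose from 0.07 ± 0.01 to 1.52 ± 0.342 FPKM, and its contact values of 1.56, 1.84 and 1.16 FPKM in replicates 1, 2 and 3 ranked as the epithelial markers did. The part of these other cells in the Fn1 and Cdh1 results was not tested. Ccl17, Ccl24, Alox15 and Ch25h, which IL-4 induces in macrophages, were too low to be tested, at no more than 27 counts in any library.

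**Figure D4:**
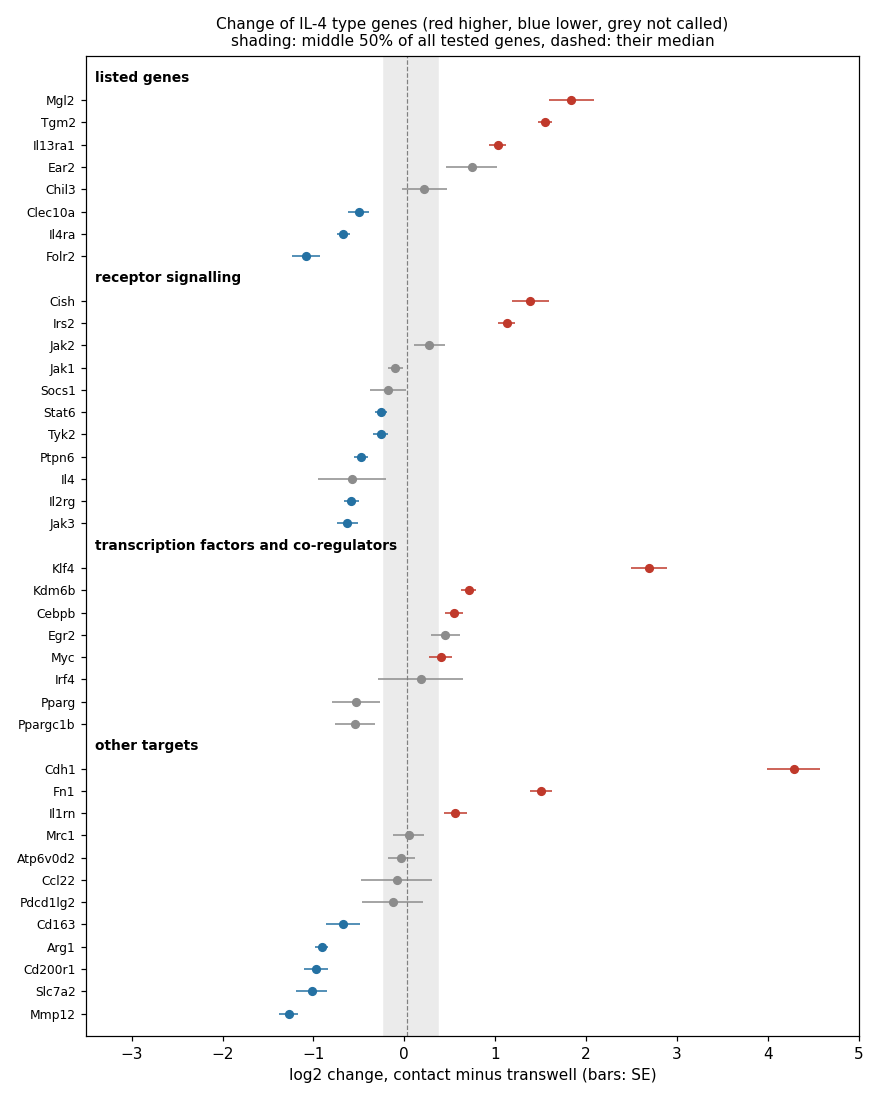
Log2 change, contact minus transwell, with its SE (horizontal axis) for the 8 tested genes and the 31 tested genes of the 3 pathway lists, red where called higher, blue where called lower and grey where not called. Shading spans the middle 50% of all 14113 tested genes (-0.23 to 0.37), and each of the 4 groups holds called and uncalled genes.

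For each tested gene the 2 genes nearest in their centred log2 counts, scaled to library size, over the 6 libraries were sought among 6121 genes with a mean of at least 5 FPKM. With 6 libraries in 2 groups, nearness reflects mostly the size of the group difference. Tgm2 lay nearest to Cd14, the co-receptor gene for bacterial lipopolysaccharide (root mean square difference 0.0476 on the log2 scale), and to Spic, a factor of iron-recycling macrophages (0.0596). Mgl2 lay nearest to Sdc1 (0.097) and Pdgfb (0.0987), Il13ra1 to Prdm1 (0.0551) and the sterol enzyme gene Sc5d (0.0649), and Il4ra to Slc36a1 (0.0361) and Cyth4 (0.0458). Folr2 lay nearest to the interferon-inducible GTPase gene Irgm2 (0.0603) and Nxpe5 (0.0621), and Clec10a to Pacs2 (0.0382) and the lectin gene Cd302 (0.0476). For Chil3 the nearest genes were farther off, Tusc1 (0.166) and the neutrophil gene S100a9 (0.184), and for Ear2 they were Gbgt1 (0.18) and Rasgef1b (0.18).

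Across the 15 alternatives each of the 8 tested genes kept its direction. The 6 called genes passed the threshold in each of the 15. Tgm2 ranged from 1.51 to 1.66 on the log2 scale, and Mgl2 ranged from 0.89 to 1.95.

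**Figure D5:**
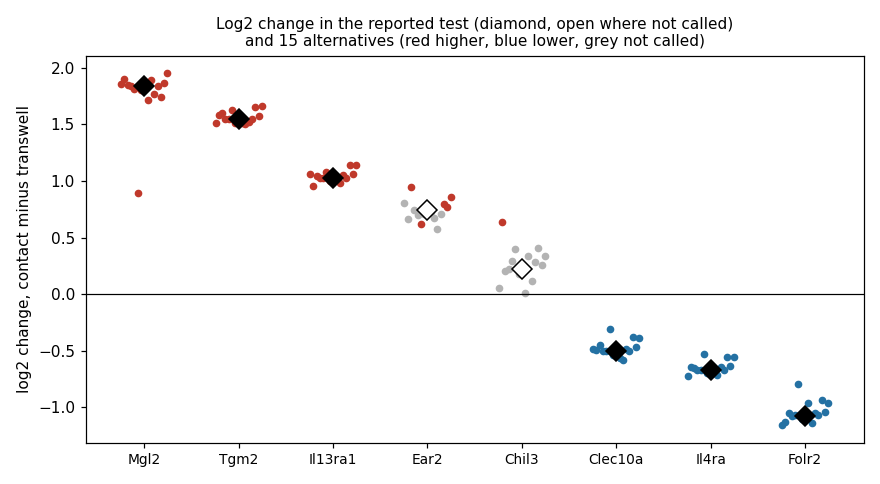
Log2 change of each of the 8 tested genes (vertical axis) in the reported test (diamonds, open where not called) and in 15 alternatives (dots, red called higher, blue called lower, grey not called). Mgl2, Tgm2 and Il13ra1 stay above 0 and called, Clec10a, Il4ra and Folr2 stay below 0 and called, and Ear2 and Chil3 change with the setting.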

How the data were processed

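RNA was taken from 3 contact and 3 transwell cultures, per the labels with Trizol and an mRNA-seq kit that they do not name. The authors deposited raw counts per Ensembl gene and FPKM in 1 table, per the file headers. Of FPKM values with a count above 100, 99.93% lay within 1% of the value computed from count, exonic length and library total. GRCm38 and mm10 are the builds in the submitters' processing notes, and the aligner, counter, annotation and strand setting were not given in the sources used here. Positions come from GENCODE M21 (GRCm38) by gene ID.

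Genes were filtered with filterByExpr (minimum count 10), scaled with TMM and compared with edgeR's quasi-likelihood test (edgeR 4.0.16, R 4.3.3, two-sided, Benjamini-Hochberg over 14113 genes). The SE is the absolute log2 change over the root of the F statistic. Alternatives used DESeq2 1.42.0, limma 3.58.1, other filters and scalings, a replicate block and each library left out in turn. Replicate pairs differed by 6.03 to 23.7 chi-square per degree of freedom, so none agreed within sampling noise. The genes and lists were chosen with earlier results of these data known. All 9 genes are named. So are genes of the 3 pathway lists, family relatives, some markers and the 2 nearest genes of each tested gene. The bound given for Retnla uses a floor of 3 counts per library, and no fold uses it.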

Additional observations from a re-analysis of the deposited data

How the results depend on the processing

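Of the 9 genes 3 or 4 were called higher, depending on the alternative, and 3 were called lower under each of the 15. The IL-4 pathway lists gave 8 to 10 genes higher and 7 to 11 lower. Over all genes, 3016 were called higher and 2270 lower. Library totals without TMM gave 3945 and 1450, limma on log2(FPKM + 1) 3811 and 1422, and limma on log2(FPKM + 0.1) 3900 and 1442, so that 73.1%, 72.8% and 73% of called genes were higher in place of 57.1%. These scalings moved the median log2 change of all genes from 0.03 to 0.14, 0.09 and 0.14. Leaving out 1 library gave 2465 to 3093 genes higher and 1577 to 2217 lower.

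The log2 ratios kept their direction, from 1.60 to 1.80 for Il13ra1 over Il4ra, -1.69 to -1.49 for Il2rg over Il13ra1 and 2.27 to 2.48 for Mgl2 over Clec10a without each library in turn. Adding 0.1 to the FPKM gave 2.12 for the last. Same-numbered libraries did not deviate together (correlations over genes of -0.08, -0.45 and 0.06), and no contact library correlated best with its own number. With the replicate block 2994 genes were higher and 2130 lower, and the block changed no call among the 9 genes. The low counts of Mgl2 and the near absence of Retnla limit what depth can show for these.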

Other observations

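Relatives of the 9 genes were mostly silent. Of 17 relatives 3 could be tested, and 4 had no count in any library (Retnlb, Chil4, Ear10 and Ear14). Retnlg, a resistin-like gene that mouse neutrophils and their precursors express, stood at 6.05, 6.21 and 4.79 FPKM in contact and 1.16, 0.09 and 0.82 FPKM in transwell replicates 1, 2 and 3, a log2 change of 2.90 ± 0.50 (edgeR adjusted p = 0.001473). The neutrophil granule genes Elane (29.3 ± 7.3 against 3.92 ± 1.88 FPKM) and Mpo (21.4 ± 4.59 against 3.21 ± 2.14 FPKM) were higher in contact as well. The other 5 of the 7 tested neutrophil markers were not called. Chil1, another chitinase-like gene, stood at 3.3, 2.1 and 2.14 FPKM in contact and 3.68, 1.12 and 1.08 FPKM in transwell (adjusted p = 0.7104), with transwell replicate 1 highest, as for Chil3. Rnase2b, a relative of Ear2 that was too low to be tested, had 0 to 3 counts per contact library and 5 to 8 per transwell library.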
